A study of Mus musculus with 20 samples.

Results

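The proteasome is the barrel-shaped protease complex that degrades proteins tagged with ubiquitin, and its genes were followed here in RNA from mouse hindlimb muscle. The genes were chosen by name, as those symbols that begin with Psma to Psmg followed by a digit together with Psme1 to Psme4, with pseudogene names left out and a level of at least 1 CPM (a count as a share of its library's total) in at least 5 libraries. Of 50 matching names 49 met this level, out of 14361 genes tested and 21844 in the table. Psma8 did not, with 0 libraries at 1 CPM or more. Psmc3ip and Psme3ip1 match by name only, since their products act in meiotic recombination and as a partner of the Psme3 activator, and both are kept apart below.

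All mice carried the genotype Cre+:iMSBmal1 fl/fl, a floxed Bmal1 gene with a Cre recombinase restricted to skeletal muscle, so the controls carried the recombinase gene too. Vehicle mice and iMSBmal1KO mice either had no exercise or had 6 weeks of daily treadmill training, which gave 4 groups of 5 libraries (vehicle sedentary, knockout sedentary, vehicle trained and knockout trained). The promoter that drives Cre, the agent that activates it, and the age and sex of the mice are not given in the sources used here. The labels name the gastrocnemius in one field and the tibialis anterior in another, and give collection at 48 hours against 47 hours in the design text. Nothing states that the libraries of a group came from separate animals, so p-values measure the spread between these samples, which may be technical.

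The 26S proteasome is built from a 20S barrel of alpha and beta rings, which holds the proteolytic sites, and a 19S cap, whose ATPases unfold the substrate and whose non-ATPase subunits bind ubiquitin chains and remove them. When immune signals such as interferon are present, 3 inducible beta subunits replace the constitutive catalytic ones, and the Psme1 and Psme2 activator can take the place of the cap. The constitutive subunits are known to be transcribed together under the transcription factor NRF1 (gene Nfe2l1) when proteasome activity runs short, and in muscle the complex degrades myofibrillar proteins marked by the ubiquitin ligases Trim63 and Fbxo32 during atrophy. BMAL1 is the clock transcription factor that binds E-box sequences together with CLOCK.

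Total estimated counts lay between 10610333 and 19153527 a library. Knockout trained libraries 1 and 4, and 3 and 5, differed by about sampling noise and each pair was counted as 1 sample, so this group has n = 3. Bmal1 itself, listed as Arntl, did not fall with the knockout label and, apart from vehicle trained library 2, was higher with it in sedentary and in trained muscle. It lay between 5.68 and 7.93 CPM in vehicle sedentary, between 10.96 and 18.9 CPM in knockout sedentary, and between 8.04 and 16.1 CPM in knockout trained samples. Counts over the whole gene need not fall when only some exons are deleted, so this value does not show whether the gene was deleted. Why it was higher was not tested, and every direction between genotypes below follows the labels alone. Arntl lay between 6.32 and 6.68 CPM in 4 vehicle trained libraries and at 132 CPM in vehicle trained library 2. That library stood apart throughout, and results that rest on it are given with it and without it. Muscle fibre markers were high in every library, with a summed level of 47100 CPM in library 2 and between 64660 and 84590 CPM in the other 19 libraries.

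Levels were compared between genes per kilobase of annotated exons, as the mean CPM per kilobase over the 19 libraries other than vehicle trained library 2. The 4 classes of the standard complex had higher medians than the other classes of subunits and helpers, while single genes of the classes overlapped. Class medians were 49.7 CPM per kilobase for the 7 constitutive beta genes, 47 for the 6 ATPase genes, 41.3 for the 11 non-ATPase genes and 28.1 for the 7 alpha genes. In the alpha ring the highest was Psma6 (116 ± 19.7, SD over 19 libraries) and the lowest Psma3 (12.2 ± 1.69). Among the constitutive beta genes Psmb5, the chymotrypsin-like site, was highest (94.4 ± 13.6) and Psmb1 lowest (28.7 ± 3). This order depended on the length used: per kilobase of the longest transcript Psmb6 was highest (113) and Psmb3 lowest (47.8). In the cap the ATPases ran from Psmc3 (61 ± 9.56) to Psmc2 (20.6 ± 1.86). The non-ATPase genes ran from the lid subunit Psmd7 (74.8 ± 6.47) to Psmd11 (14.5 ± 1.78). Per kilobase of the longest transcript the alpha median (57.2) lay above the non-ATPase median (55.9).

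The inducible beta genes were far lower, with a class median of 2.27 CPM per kilobase. Psmb10 stood at 5.76 ± 1.22 and Psmb9 at 0.895 ± 0.351. The assembly chaperones, which help the rings and the base form and are not part of the finished complex, had a median of 5.13, from Psmg4 (12.8 ± 4.08) to Psmd9 (2.59 ± 0.287). Per kilobase of the longest transcript they ran from Psmg2 (15) to Psmg3 (3.13). Among the activators and the inhibitor, with a class median of 13.5, the nuclear activator Psme4 was highest (28.3 ± 4.64) and the inhibitor Psmf1 lowest (2.46 ± 0.327). Psme2b, at 28.2 ± 6.7, is a near-identical copy of Psme2, and how reads were divided between the pair is uncertain.

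The strongest pattern in these genes came from 1 library. In vehicle trained library 2, all 31 genes of the standard 20S and 19S complex were at their highest of the 20 libraries, against 24.2% of all genes tested. The summed level of the 31 genes was 8333 CPM there and between 2816 and 3307 CPM in the other 4 vehicle trained libraries. The median gene stood 2.58-fold above the mean of those 4 libraries, and 25 of the 31 were more than 2-fold above, against 11.5% of all genes tested. With 1 library these are descriptions, and the only check made was that of the gaps between libraries, given with the flagged results.

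**Figure D1:**
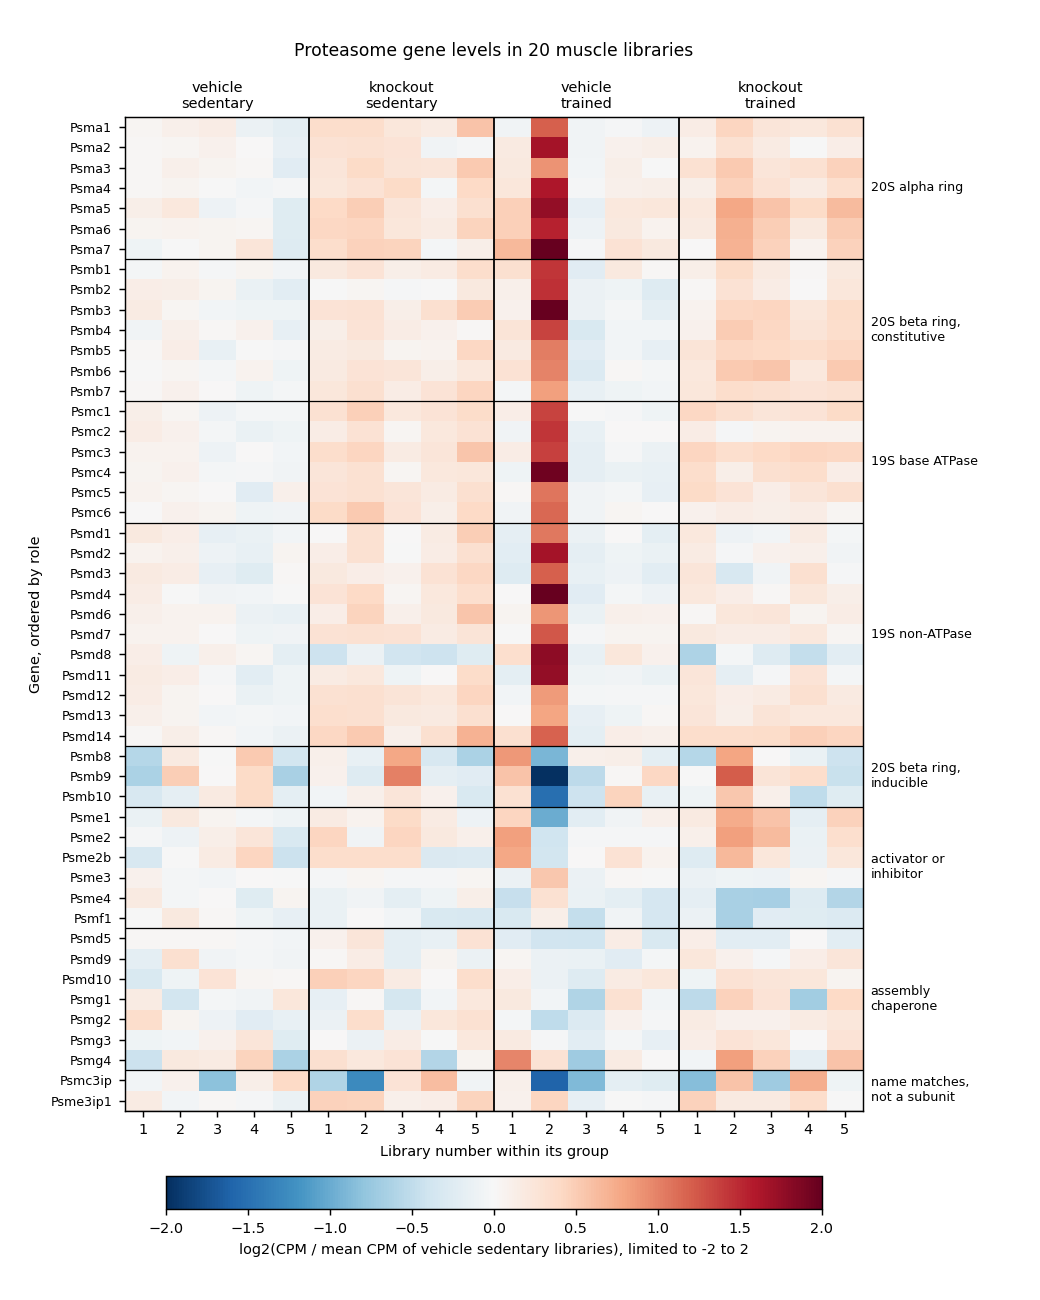
Level of each of the 49 genes (rows, ordered by role) in each of the 20 libraries (columns, by group), as log2 of CPM over the mean CPM of the vehicle sedentary libraries, with colour limited to -2 to 2. Vehicle trained library 2 is dark red over the 31 genes of the standard complex and blue over the 3 inducible beta genes, and the knockout sedentary columns are light red over most of the 31.

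The genes farthest above their group in that library came from every part of the complex. Psmd4, a ubiquitin receptor of the cap, read 112, 469, 95.4, 108 and 104 CPM in vehicle trained libraries 1 to 5, a log2 difference of 2.16 between library 2 and the mean of the others. Psma7 of the alpha ring read 131, 440, 82.4, 103 and 96.4 CPM (log2 difference 2.09). The ATPase Psmc4 read 57.7, 234, 53.6, 55.8 and 55.1 CPM (2.08). For each of these genes library 2 stood above the other 4, which spanned 53.6 to 57.7 CPM for Psmc4 and 82.4 to 131 CPM for Psma7. Psmb3, a non-catalytic beta subunit, followed at 2.05, with 256 CPM in library 2. The lid subunit Psmd11 followed at 1.87, with 304 CPM. The smallest difference among the 31 genes was that of Psma3, at 0.83.

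The inducible subunits went the other way in the same library, where all 3 were at their lowest of the 20 libraries, against 34.3% of all genes tested. Psmb9 read 4.24, 0.462, 2, 2.9 and 3.83 CPM in vehicle trained libraries 1 to 5, a log2 difference of -2.81 for library 2. Psmb10 had 3.37 CPM in library 2 (log2 difference -1.61) and Psmb8 3.83 CPM (-1.20). The summed level of Psmb8, Psmb9 and Psmb10 was 1.23% of that of their constitutive counterparts Psmb5, Psmb6 and Psmb7 in library 2, and between 3.53% and 8.31% in the other 19 libraries. Psme1, which pairs with Psme2 in the immune-linked activator, had 10.6 CPM (-1.07) and was also at its lowest. Psmc3ip completed the 5 farthest below, at 0.566 CPM (-1.33).

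The assembly chaperones did not stand higher in library 2 as the 31 genes did, and of the 6 activators and inhibitor Psme3 and Psme4 were higher by less. The activator Psme3 had 71.2 CPM in library 2 (log2 difference 0.60) and the activator Psme4 334 CPM (0.59), both the highest of 20. The 7 assembly chaperones lay between -0.45 and 0.06, with a median of -0.06, and 0 of them passed 2-fold.

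**Figure D2:**
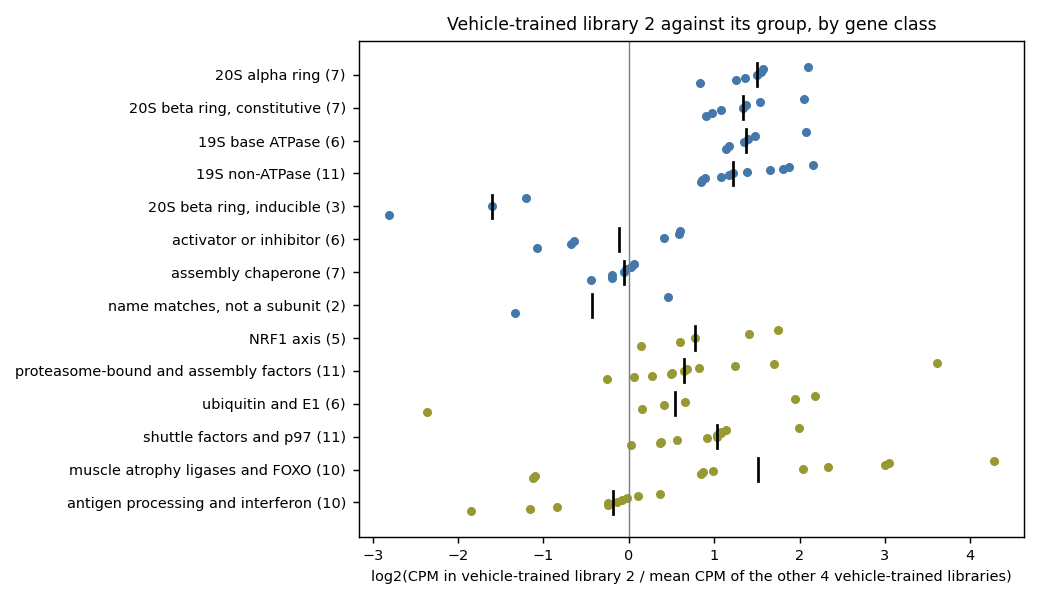
Each point is a gene and the horizontal axis is log2 of CPM in vehicle trained library 2 over the mean CPM of the other 4 vehicle trained libraries. Rows are the roles of the 49 genes (blue) and the pathway lists (olive), with the number of genes in brackets and a black bar at the row's median. The 4 rows of the standard complex lie wholly to the right of 0 and the inducible beta row wholly to the left.

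The pathway around the complex was read in 6 lists. Zfand2a, a stress-induced protein that binds the cap, had 150 CPM in library 2 against 11.2 to 13 CPM in the other 4 vehicle trained libraries. The ubiquitin gene Ubb had 3286 CPM against 625 to 842 CPM. The cap's ubiquitin receptor Adrm1 had 123 CPM against 34.5 to 45.7 CPM. Of the NRF1 list, Ddi2, the protease that activates NRF1, had 324 CPM against 75.5 to 115 CPM, whereas Nfe2l1 itself differed by a log2 value of only 0.14. The atrophy ligase Trim63 had 6307 CPM against 290 to 346 CPM, and Fbxo32 had 3022 CPM against 306 to 387 CPM. Other genes of these lists were lower there: the ubiquitin-activating enzyme Uba6 had 2.44 CPM against 9.42 to 15 CPM (log2 difference -2.37), and of the atrophy list Nedd4 differed by -1.13 and Fbxo21 by -1.10. More than 2-fold higher were 2 of 5 genes of the NRF1 list, 3 of 11 proteasome-bound and assembly factors and 2 of 6 ubiquitin genes. So were 6 of 11 shuttle factors and 5 of 10 atrophy genes, against 11.5% of all genes tested. More than 2-fold lower were 1 of the 6 ubiquitin genes, 2 of the 10 atrophy genes and 2 of the 10 antigen genes, against 23.9% of all genes tested. Of the 10 genes for antigen processing and interferon 0 were at their highest in library 2, against 24.2% of all genes tested.

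Markers of other cells also differed in this library. The macrophage list summed to 393 CPM, against 53.4 to 366 CPM in the other 19 libraries, and the neutrophil list to 28.1 CPM, against 0.267 to 5.58 CPM. The dendritic and B cell list (54.2 CPM) lay within the range of the other libraries, and the T and NK cell list (0.462 CPM) below it. Of the T and NK cell markers 1 was abundant enough to be tested, and of the neutrophil markers also 1. The smooth muscle list summed to 4237 CPM, most of it Des (4189 CPM), against 2106 to 2894 CPM in the other 19 libraries. The blood, Schwann cell and endothelial lists lay within the range of the other libraries. The adipocyte list (172 CPM) and the satellite cell list (8.65 CPM) lay below the lowest of the other 19, at 225 and 20.4 CPM. The part of these cells in the proteasome values was not tested. In bulk RNA, fewer cells of a type and less RNA per cell cannot be told apart.

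Promoter windows were read to see what letters the genes that moved together carry near their starts. RefSeq windows on build GRCm38.p6, from 250 bases before to 50 bases after a start, were found for 42 of the 49 genes and 25 of the 31 genes of the standard complex. Letters were searched on both strands: CCAAT, the box bound by NF-Y, TGACNNNGC, as in antioxidant response elements bound by NRF1 and NRF2, CACGTG, the E-box bound by CLOCK and BMAL1, and GAAA, any 2 bases, GAAA, as in interferon response elements. CCAAT was in 10 of the 25 genes, a share of 40% against 37.4% of all 32851 windows. TGACNNNGC was in 4 of the 25, which is 16% against 12.4%. CACGTG was in 1 of the 25, which is 4% against 7.15%, and the interferon response letters in 2, which is 8% against 3.44%. The shares are descriptions, since a match is not a bound site.

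The 4 standard-complex genes with TGACNNNGC, or its reverse complement GCNNNGTCA, carry it in these stretches of 30 bases, given in the gene's direction with the match in capitals. Psmb5 is at chr14:54618024-54618053 (minus strand), Psmb6 at chr11:70525337-70525366 (plus), Psmc6 at chr14:45329586-45329615 (plus) and Psmd12 at chr11:107479278-107479307 (plus).
Psmb5: acgtgaagttgTGACGTCGCggcgttgcca
Psmb6: actaaagagagTGACGGAGCgctttacgac
Psmc6: gccagccagtaGCTAAGTCAggcattgctc
Psmd12: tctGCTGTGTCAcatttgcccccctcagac
The match begins at -47 in Psmb5 and -9 in Psmb6, and at -227 and -247 in Psmc6 and Psmd12, counted from the annotated start.

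CACGTG was found in 5 of the 42 genes with a window, which is 11.9% against 7.15% of all windows: Psma4 of the standard complex, and Psmb10, Psmd9, Psme3 and Psme3ip1 outside it. Psma4 is at chr9:54950707-54950736 (plus), Psmb10 at chr8:105938491-105938520 (minus), Psmd9 at chr5:123228127-123228156 (plus) and Psme3 at chr11:101316157-101316186 (plus). The capitals mark CACGTG.
Psma4: ttctgcacagtcCACGTGggcagactgagc
Psmb10: gttcccaacgccCACGTGgtggcacgccca
Psmd9: tcatctgaaaacCACGTGgtctatctagcc
Psme3: ggctgcgcagggCACGTGctcatcctcccc
None of the 5 genes, Psme3ip1 included, was among those called between genotypes by the fits given below. Psme3ip1 had the smallest p of the 49 genes in sedentary muscle in the fit of all 18 samples. In that fit the sedentary log2 change was 0.21 ± 0.26 for Psma4, -0.03 ± 0.25 for Psmb10, -0.07 ± 0.11 for Psmd9 and -0.05 ± 0.12 for Psme3. Psmd9 was the only 1 of the 49 with every knockout trained sample above every vehicle trained library, a smaller share than the background of 3.98%. Whether the letters have a part in these values was not tested.

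The 250 bases before the start are shown for Psmd4 and Psma7, the pair with the largest rise in vehicle trained library 2, and for Psmb9, with the largest fall. Psmd4 is at chr3:95042615-95042864 (minus), Psma7 at chr2:180042465-180042714 (minus) and Psmb9 at chr17:34187331-34187580 (minus). Capitals mark CCAAT or its reverse complement ATTGG, which all 3 carry, and in Psmd4 also the reverse complement of the interferon response letters.
Psmd4: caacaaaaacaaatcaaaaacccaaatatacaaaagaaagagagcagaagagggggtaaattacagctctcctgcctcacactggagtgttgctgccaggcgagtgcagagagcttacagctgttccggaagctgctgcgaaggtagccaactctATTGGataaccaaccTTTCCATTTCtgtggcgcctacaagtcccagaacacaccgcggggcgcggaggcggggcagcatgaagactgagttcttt
Psma7: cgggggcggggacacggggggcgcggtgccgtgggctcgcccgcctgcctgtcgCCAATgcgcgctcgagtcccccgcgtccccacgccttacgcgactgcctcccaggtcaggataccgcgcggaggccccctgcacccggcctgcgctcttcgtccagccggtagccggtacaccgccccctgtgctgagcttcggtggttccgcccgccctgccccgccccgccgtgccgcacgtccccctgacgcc
Psmb9: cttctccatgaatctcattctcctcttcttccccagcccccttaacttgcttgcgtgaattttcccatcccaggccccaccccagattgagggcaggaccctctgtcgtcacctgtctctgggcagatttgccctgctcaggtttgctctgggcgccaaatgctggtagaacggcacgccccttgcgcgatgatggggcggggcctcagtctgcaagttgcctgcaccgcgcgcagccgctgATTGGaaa
None of the 3 holds CACGTG or TGACNNNGC in these 250 bases.

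The first comparison was between the libraries labelled knockout and vehicle in sedentary muscle. Most genes of the standard complex had slightly higher values in the libraries labelled knockout: 29 of the 31 had a positive log2 change, with a median of 0.21 against 0.01 over all genes tested. In the fit of all 18 samples, edgeR's quasi-likelihood test with Benjamini-Hochberg adjustment called 0 of the 49 genes, with a background of 2.33% of all genes called. There 1 gene had an unadjusted p under 0.05, and DESeq2 also called 0. Here and below, counts at an unadjusted p and counts of positive changes are given without the share over all genes. No excess is read from them. Leaving out vehicle trained library 2, whose spread enters this shared estimate, gave 5 called genes, all higher, with a background of 3.13% of genes called higher. Fitting the 10 sedentary libraries alone gave 5 called higher and 1 called lower, with backgrounds of 3.68% and 4.53%.

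The genes called were subunits of the cap for the most part. The ATPase Psmc3 read 146, 145, 128, 138 and 132 CPM in vehicle sedentary and 177, 186, 155, 164 and 202 CPM in knockout sedentary libraries. Every knockout library lay above every vehicle library. The log2 change was 0.31 ± 0.09 (SE; adjusted p = 0.036 by edgeR without vehicle trained library 2, 0.047 from the sedentary libraries alone, 0.877 from all 18 samples). Psmd14, the deubiquitinase of the lid, read 41.5, 44.5, 41.6, 39.2 and 37.5 CPM against 54.3, 58.8, 43.8, 50.9 and 66.2 CPM. Its ranges overlapped by 1 knockout library, and the log2 change was 0.38 ± 0.10 (edgeR adjusted p = 0.032 without vehicle trained library 2). The ATPases Psmc1 (0.28 ± 0.08) and Psmc6 (0.30 ± 0.08) were called in both of these fits. The lid subunit Psmd12 (0.26 ± 0.08) was called only without library 2, and Psma6 (0.28 ± 0.08) only in the sedentary libraries alone.

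Across the 49 genes, 14 had every knockout sedentary library above every vehicle sedentary library in CPM, against a background of 5.63%, and 0 had every one below, against 3.77%. All 14 belonged to the standard complex: the alpha genes Psma1, Psma3 and Psma6, the beta genes Psmb1, Psmb6 and Psmb7, the ATPases Psmc1, Psmc3, Psmc5 and Psmc6, and Psmd6, Psmd7, Psmd12 and Psmd13 of the lid. Psmb7, the trypsin-like site, read 156, 164, 154, 144 and 150 CPM against 180, 192, 171, 186 and 207 CPM. Its log2 change was 0.23 ± 0.17 and was not called. The summed level of the 31 genes lay between 2907 and 3252 CPM in vehicle sedentary and between 3368 and 3891 CPM in knockout sedentary libraries, without overlap. The summed NRF1 list (804 to 832 against 856 to 935 CPM) did not overlap either. Nor did the proteasome-bound and assembly factors (1144 to 1393 against 1442 to 1593 CPM). The summed ubiquitin, shuttle factor, atrophy and antigen lists overlapped. Markers of other cells overlapped between these groups, with the macrophage list at 55.1 to 220 CPM against 84.4 to 236 CPM and the muscle fibre list at 72710 to 81420 against 64660 to 79270 CPM. Psmb2 was flat, with means of 53.1 ± 5.59 and 54.7 ± 3.56 CPM (SD, n = 5 each).

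**Figure D3:**
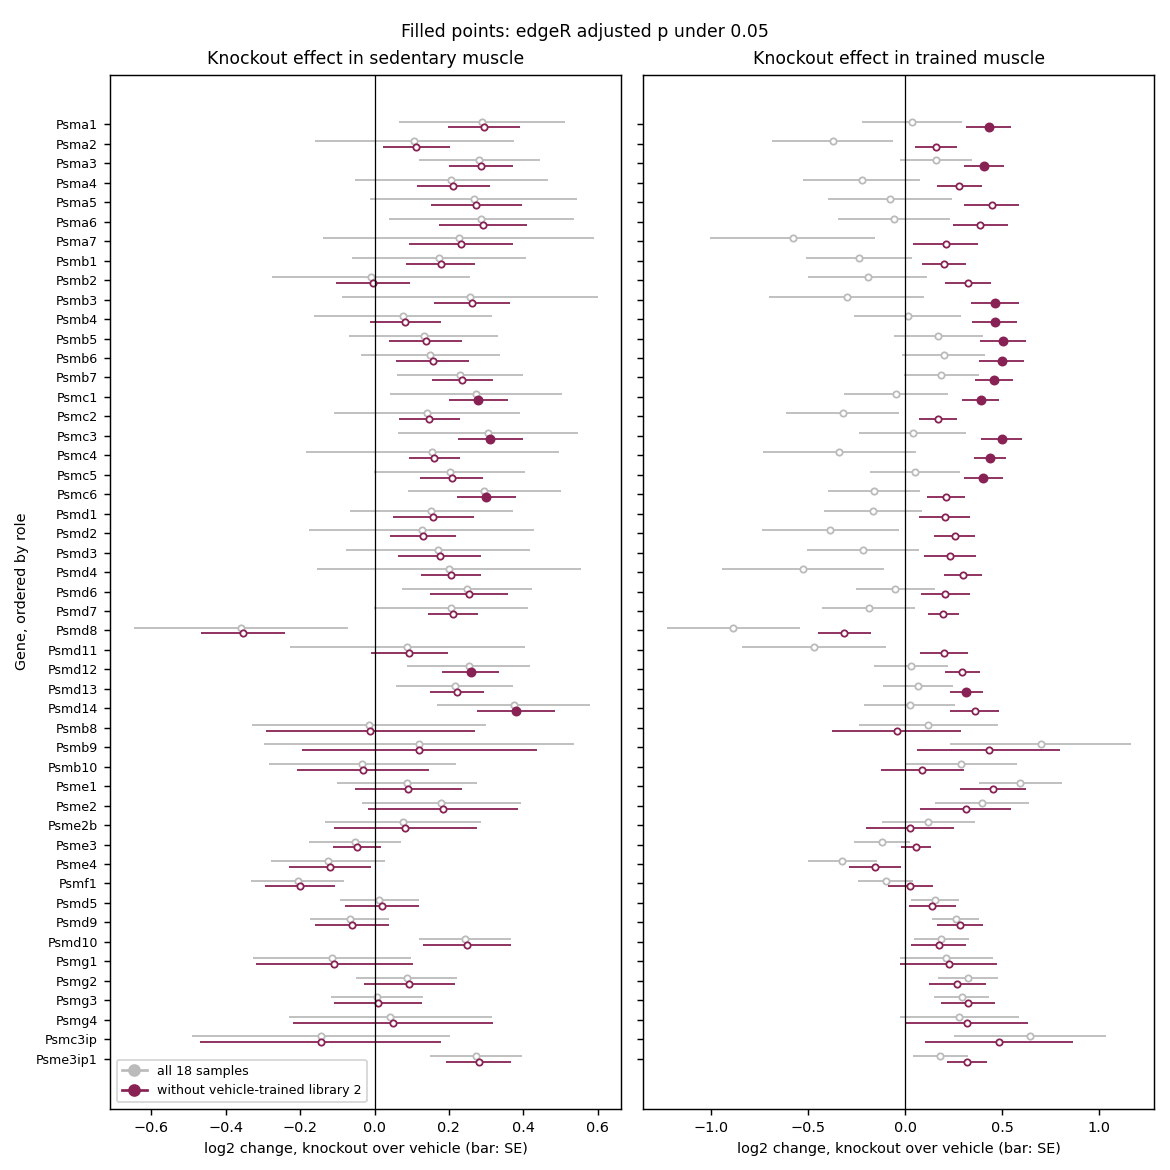
Log2 change between knockout and vehicle muscle with its standard error for each of the 49 genes (rows, ordered by role), sedentary on the left and trained on the right. Grey is the fit of all 18 samples and purple the fit without vehicle trained library 2, and filled points had an edgeR adjusted p under 0.05. The purple points of the standard complex lie to the right of 0 with Psmd8 as the exception, apart from Psmb2 in sedentary muscle, which lies at about 0. The grey points of trained muscle scatter to both sides.

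Psmd8, a lid subunit, ran against the other cap genes. It read 236, 204, 231, 222 and 189 CPM in vehicle sedentary and 162, 200, 166, 163 and 184 CPM in knockout sedentary libraries, so the ranges overlapped by 1 knockout library. The log2 change was -0.36 ± 0.09 in the sedentary libraries alone, where edgeR called it (adjusted p = 0.015). It was -0.35 ± 0.11 and not called without vehicle trained library 2 (adjusted p = 0.071). In trained muscle it was -0.31 ± 0.14 without library 2 (adjusted p = 0.18) and -0.89 ± 0.34 with it (adjusted p = 0.185). In both trained and sedentary muscle it had the lowest log2 change of the 49 genes in the fit of all 18 samples.

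The same comparison in trained muscle depended on vehicle trained library 2. With all 18 samples, edgeR called 0 of the 49 genes (background 3.29%), 3 had an unadjusted p under 0.05, and DESeq2 called 0. The median log2 change was 0.02 over the 49 genes and -0.16 over the 31 of the standard complex, against -0.03 over all genes. The lowest log2 changes after that of Psmd8 were those of Psma7 (-0.58 ± 0.43), Psmd4 (-0.53 ± 0.42) and Psmd11 (-0.47 ± 0.37). Without library 2, edgeR called 12 genes higher and 0 lower, with a background of 5.01% called higher. All 31 genes of the standard complex were highest in that library, so leaving it out moves their log2 changes up by construction. An unadjusted p under 0.05 was found for 27 of the 49, and the share of all genes at that level is not given here. The median became 0.30 over the 49 genes, against 0.00 over all genes. All 12 belonged to the standard complex: 5 of the 7 constitutive beta genes, 4 of the 6 ATPases, 2 of the 7 alpha genes and 1 of the 11 non-ATPase genes. Of the muscle fibre markers Mb, the oxygen carrier myoglobin, was higher, by 0.96 ± 0.25 with library 2 (edgeR adjusted p = 0.0438) and 0.79 ± 0.18 without it. The list went both ways: without library 2, mean CPM in vehicle and knockout trained muscle was 21890 and 18170 for Myh4, but 9614 and 11350 for Tnnt3. The summed list overlapped, at 66750 to 78420 CPM in vehicle trained libraries without library 2 and 70070 to 84590 CPM in knockout trained libraries. The part of these markers in the proteasome values was not tested.

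Psmb5 had the largest log2 change of the 12 genes. Psmb5 read 87.3, 65.7, 73.8 and 68.8 CPM in vehicle trained libraries 1, 3, 4 and 5 and 156 CPM in library 2. In knockout trained muscle it read 92 and 98.5 CPM (libraries 1 and 4), 102 and 102 CPM (libraries 3 and 5) and 102 CPM (library 2). All knockout values thus lay above the 4 vehicle libraries and below the fifth. The log2 change was 0.51 ± 0.12 (edgeR adjusted p = 0.0104) without vehicle trained library 2 and 0.17 ± 0.23 with it. Psmb6, the caspase-like site, changed by 0.50 ± 0.12 and Psmb7 by 0.46 ± 0.10 without library 2. Psmb3 and Psmb4 of the same ring each changed by 0.46 ± 0.12.

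Of the 6 ATPases of the base 4 were called. Psmc3 read 153, 121, 136 and 127 CPM in the 4 vehicle trained libraries and 355 CPM in library 2, against 185, 186, 182, 184 and 174 CPM in knockout trained libraries 1, 4, 3, 5 and 2. The log2 change without library 2 was 0.50 ± 0.10 (edgeR adjusted p = 0.0053). Psmc4 changed by 0.44 ± 0.08, Psmc5 by 0.40 ± 0.10 and Psmc1 by 0.39 ± 0.10. Psmc2 (0.17 ± 0.10, edgeR adjusted p = 0.333) and Psmc6 (0.21 ± 0.10, adjusted p = 0.2) were not called. Of the remaining called genes, Psma1 changed by 0.43 ± 0.12, Psma3 by 0.40 ± 0.10 and Psmd13 by 0.32 ± 0.09. With library 2 included the log2 change was -0.34 ± 0.39 for Psmc4 and -0.30 ± 0.40 for Psmb3.

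Without library 2, 18 of the 49 genes had every knockout trained sample above every vehicle trained library (background 6%), and 0 had every one below (background 8.5%). Of the 18, 16 belonged to the standard complex, and the others were the base chaperone Psmd9 and Psme3ip1. With library 2 only Psmd9 remained above (background 3.98% in each direction), at 20.3 ± 0.682 CPM (n = 3) against 17.4 ± 1.24 CPM (n = 5), and 0 were below. The log2 change of Psmd9 was 0.26 ± 0.12 and was not called (edgeR adjusted p = 0.27). Psme1 had the smallest p of the 49 genes in the fit of all 18 samples, with 28.8 ± 7.04 against 19.9 ± 6.47 CPM and a log2 change of 0.59 ± 0.21 that was not called (adjusted p = 0.153).

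**Figure D4:**
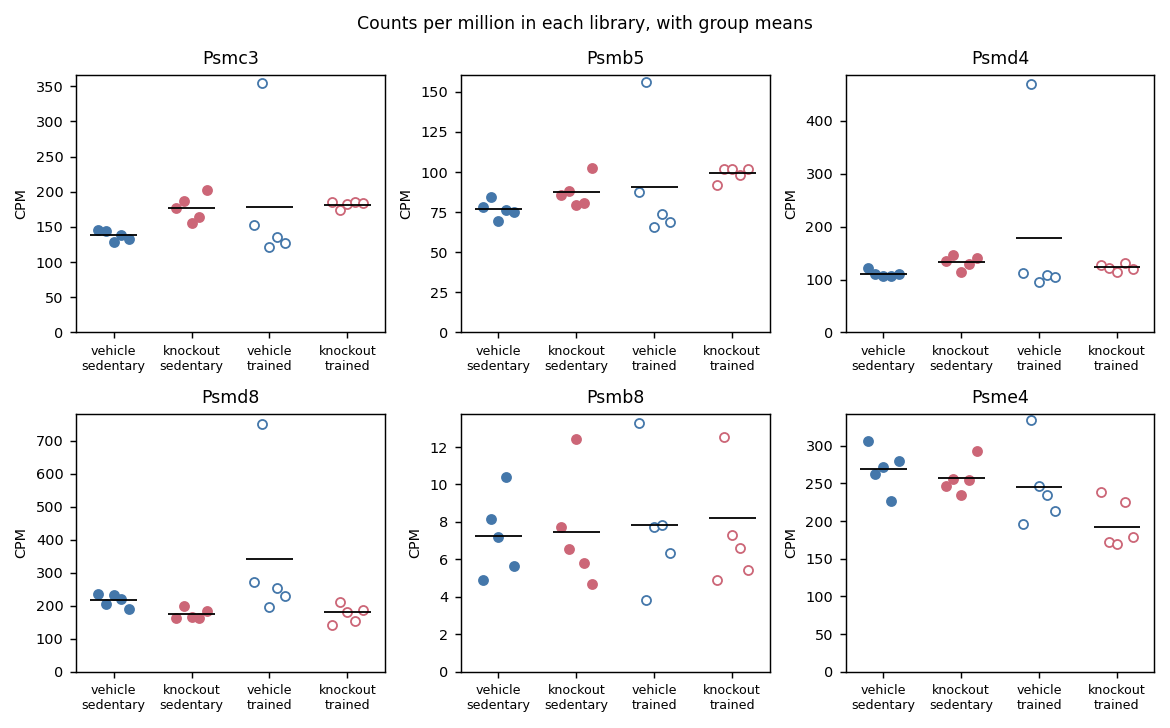
CPM of 6 genes in each of the 20 libraries, by group, with the group mean as a black line and each vertical axis starting at 0. Blue is vehicle and red is knockout, filled points are sedentary and open points trained, and the 5 knockout trained points stand for 3 samples. Vehicle trained library 2 is the open blue point at 355 for Psmc3, 156 for Psmb5, 469 for Psmd4, 751 for Psmd8 and 334 for Psme4, and the lowest point for Psmb8, at 3.83.

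Training was compared next, within each genotype. In vehicle muscle edgeR called 0 of the 49 genes with a background of 0%, 9 had an unadjusted p under 0.05, and DESeq2 called 0. All 31 genes of the standard complex had a positive log2 change, with a median of 0.45 against 0.03 over all genes tested. Without library 2 only 15 did and the median was 0.00, against -0.003 over all genes tested. The highest log2 changes with library 2 were those of Psma7 (1.11 ± 0.37, the smallest p, adjusted p = 0.272), Psmd4 (0.75 ± 0.36), Psma5 (0.74 ± 0.28) and Psmd8 (0.72 ± 0.29). The lowest log2 changes were those of Psmc3ip (-0.42 ± 0.35), Psmd5 (-0.18 ± 0.11), Psmf1 (-0.15 ± 0.12) and Psmg2 (-0.10 ± 0.14). Without library 2 the log2 change was 0.33 ± 0.15 for Psma7 and -0.06 ± 0.09 for Psmd4. The log2 change of Psmc3 was -0.01, with a 95% interval from -0.19 to 0.18, and that of Psmb5 -0.03, with an interval from -0.23 to 0.18. Without library 2 edgeR called 0 genes here (background 0%), and 2 of the 49 had an unadjusted p under 0.05.

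Ranges in vehicle muscle overlapped for nearly all genes. With all libraries, 0 genes lay wholly higher (background 0.251%) and 0 wholly lower (background 2.73%) in trained than in sedentary muscle. Without library 2, 0 lay wholly higher (0.557%) and 1, Psmc4, wholly lower (4.35%). Psmc4 had 53.6 to 57.7 CPM in those 4 trained libraries and 57.9 to 64.9 CPM in the sedentary ones. Its log2 change was -0.10 ± 0.07 and was not called.

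In knockout muscle training went with small positive log2 changes in the 20S genes, none of them called. All 7 alpha and all 7 constitutive beta genes had a positive log2 change, with medians of 0.21 and 0.27. The 11 non-ATPase genes had a median of 0.03, and all genes tested one of -0.02. EdgeR called 0 of the 49 genes (background 0%), 2 had an unadjusted p under 0.05, and DESeq2 called 0. The log2 change was 0.38 ± 0.21 for Psmb6 and 0.38 ± 0.27 for Psmb4. The highest values were those of Psmg4 (0.52 ± 0.31), Psmb9 (0.52 ± 0.47), Psme1 (0.47 ± 0.21) and Psma5 (0.40 ± 0.32), and Psmd9 had the smallest p (0.29 ± 0.12, adjusted p = 0.44). Without vehicle trained library 2 edgeR again called 0 of the 49 (background 0.843%), with Psmb4 (0.39 ± 0.11, adjusted p = 0.0805) and Psmb6 (0.38 ± 0.11, 0.083) nearest to the threshold, and 12 had an unadjusted p under 0.05. On log2(CPM + 1) without TMM scaling, the median of all genes in this comparison moved from -0.02 to -0.14 and that of the 49 genes from 0.16 to 0.02.

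In knockout muscle 2 of the 49 genes, the activators Psme3 and Psme4, had every trained sample below every sedentary library in CPM, a smaller share than the background of 9.77%, and 0 genes lay wholly higher (background 2.1%). Psme4 read 246, 256, 235, 255 and 294 CPM in knockout sedentary libraries. In trained libraries it read 239 and 225 CPM (libraries 1 and 4), 170 and 179 CPM (3 and 5) and 172 CPM (library 2). Libraries 1 and 4 count as 1 sample, and library 1 taken alone lay above the lowest sedentary library. The log2 change of Psme4 was -0.29 ± 0.18 and was not called, and those of Psmd3 (-0.10 ± 0.29) and Psmc6 (-0.09 ± 0.24) were also negative. For Psme3 the fitted log2 change was 0.07 ± 0.14, so its lower CPM did not hold after TMM scaling, and knockout trained library 4 taken alone (50.1 CPM) lay above the lowest sedentary library (47.7 CPM).

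The last comparison was the interaction, whether the training change differed between genotypes. EdgeR called 0 of the 49 genes with all 18 samples and 0 without library 2 (background 0% in both), with 0 and 6 genes at an unadjusted p under 0.05, and DESeq2 called 0 with all samples. The median log2 interaction of the 31 genes was -0.34 with library 2 and 0.10 without it. The constitutive beta genes had the highest class median without it, at 0.33. Psmb5 had a log2 interaction of 0.37 without library 2, with a 95% interval from 0.07 to 0.67 and an edgeR adjusted p of 0.36. The highest values with library 2 included were those of Psmc3ip, Psmb9, Psme1 and Psmd9, and the lowest those of Psma7, Psmd4, Psmb3 and Psmd11.

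The inducible beta genes showed no change between genotypes or with training that passed the test, and their libraries varied widely within groups. Psmb8 read 4.87, 8.18, 7.21, 10.4 and 5.62 CPM in vehicle sedentary and 7.75, 6.58, 12.4, 5.82 and 4.67 CPM in knockout sedentary libraries. It read 13.3, 3.83, 7.75, 7.86 and 6.35 CPM in vehicle trained libraries, and 4.9, 12.5, 7.32, 6.6 and 5.43 CPM in knockout trained libraries 1 to 5. The groups overlapped throughout. Its knockout change in sedentary muscle was -0.01 ± 0.31 on the log2 scale. Psmb9 means ranged from 2.69 ± 1.52 CPM (vehicle trained, n = 5) to 4.23 ± 2.11 CPM (knockout trained, n = 3), and Psmb10 means from 8.89 ± 3.89 to 10.4 ± 3.19 CPM in the same groups. The largest knockout change was that of Psmb9 in trained muscle, at 0.70 ± 0.47 (adjusted p = 0.466), and 0.43 ± 0.37 without vehicle trained library 2 (adjusted p = 0.541). Without that library the vehicle trained mean was 3.25 CPM for Psmb9 and 10.3 CPM for Psmb10 (n = 4).

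The 3 libraries highest in the summed inducible beta level were also the 3 highest in the dendritic and B cell list. Knockout trained library 2 had the highest summed inducible beta level of the 20 libraries, 33.2 CPM, and was followed by knockout sedentary library 3 (29.6 CPM) and vehicle trained library 1 (29.5 CPM). Knockout trained library 2 was also highest in the dendritic and B cell list, at 316 CPM against 36.3 to 266 CPM in the rest, and knockout sedentary library 3 held the 266 CPM. Vehicle trained library 1 had 244 CPM of this list, and the highest macrophage list after library 2 of its group, at 366 CPM. Vehicle trained library 2 went the other way, with the lowest inducible sum of the 20 (7.66 CPM) and the highest macrophage (393 CPM) and neutrophil (28.1 CPM) lists. The part of these cells in the inducible levels was not tested. Several of these genes overlap others in the annotation, Psmb9 with Tap1 and Psmb8 with Gm20496 on the other strand, and strandedness is not given in the sources used here, so reads of the partners cannot be told apart.

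Of the 6 activators and inhibitor and the 7 assembly chaperones 0 were called between genotypes in sedentary muscle, with a median log2 change of 0.01 in each class. Psme4 had 269 ± 29 and 257 ± 22.1 CPM, Psme3 48.7 ± 1.72 and 48.8 ± 1.25 CPM, and Psmf1 17.9 ± 1.72 and 16.1 ± 1.6 CPM in vehicle and knockout sedentary libraries (n = 5 each), with a log2 change of -0.21 ± 0.12 for Psmf1. Psme1 (21 ± 1.97 and 23.2 ± 2.85 CPM) and Psme2 (4.42 ± 0.641 and 5.18 ± 0.761 CPM) were not called. The chaperone Psmd10 had the highest log2 change of these classes, 0.24 ± 0.12 (adjusted p = 0.576). The log2 change was -0.14 ± 0.35 for Psmc3ip and -0.12 ± 0.15 for Psme4. Psme3ip1 had the smallest p of the 49 genes here, with 23.4 ± 1.77 and 29.4 ± 3.72 CPM and a log2 change of 0.27 ± 0.12 (adjusted p = 0.472). In trained muscle all 7 assembly chaperones had a positive log2 change, with a median of 0.26 with library 2 and 0.27 without it. The medians over all genes tested were -0.03 and 0.00, and 0 of the 7 were called.

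Of the pathway lists, 0 genes passed the threshold between genotypes in the fit of all 18 samples. Without vehicle trained library 2 the backgrounds were 3.13% of all genes called higher and 3.84% lower in sedentary muscle, 5.01% and 3.65% in trained muscle, and 0.843% in either direction for training in knockout muscle. In that fit Ngly1, which deglycosylates NRF1 before it acts, was higher in knockout muscle, by 0.33 ± 0.08 on the log2 scale in sedentary and 0.32 ± 0.10 in trained muscle (1 of 5 genes of the NRF1 list called higher in each). Nfe2l2, which encodes NRF2, was lower in trained knockout muscle, by -0.40 ± 0.11. Akirin2, which carries proteasomes into the nucleus, was higher there, by 0.31 ± 0.09 (1 of 11 proteasome-bound and assembly factors). Ubb was higher in trained knockout muscle, by 0.40 ± 0.11 (1 of 6 ubiquitin genes). Foxo1, a driver of the atrophy ligases, was lower in both, by -0.45 ± 0.08 and -0.40 ± 0.10. Fbxo30 was higher in sedentary knockout muscle, by 0.48 ± 0.09, and lower after training in knockout muscle, by -0.49 ± 0.11. Both belong to the list of 10 atrophy genes. Of the 11 shuttle factors and 10 antigen genes 0 were called.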

How the data were processed

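The authors deposited 1 estimated count for each gene and library, of which 72.7% are whole numbers, and no gene sums to under 10. The submitters' processing notes name Partek, STAR 2.7.8a, DESeq2, mm10 and GRCm39 without their roles. The file's name calls the values CPM, but the columns sum to different totals. Strandedness and annotation are not given in the sources used here. Estimated counts were rounded. Of 190 pairs of libraries, 2 differed by about sampling noise (ratio of noise at high to low counts under 1.5) and were summed. edgeR 4.0.16 (R 4.3.3, TMM, 4 group means, quasi-likelihood test, two-sided) was fitted to the 14361 genes with at least 1 CPM in 5 libraries, with Benjamini-Hochberg adjustment at 0.05. CPM values are shares of library totals. The test was checked on simulated counts. Alternatives used DESeq2 1.42.0 and limma 3.58.1. Exon lengths and overlaps are from GENCODE M21, promoters from RefSeq. Genes were named by rule: those called, the inducible beta genes with their counterparts, activators and inhibitor, the largest changes and smallest p per comparison, extremes of level, and the genes farthest out in the library that stood apart. The members and lists were chosen with earlier results of these data known.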

Additional observations from a re-analysis of the deposited data

Results flagged for a closer look

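Of 147 sets of 5 libraries checked, 39 had 1 library whose gap to the nearest other exceeded 0.71 of the range, where chance gives about 7.35. The genes share the same libraries, so the 39 are not separate results. In 31 of the 39 the library was vehicle trained library 2, at the top. In the alpha ring this library had 176 CPM of Psma1, 218 of Psma2, 76.8 of Psma3, 181 of Psma4, 97.9 of Psma5, 352 of Psma6 and 440 of Psma7. In the beta ring it had 326 CPM of Psmb1, 146 of Psmb2, 256 of Psmb3, 266 of Psmb4, 156 of Psmb5 and 272 of Psmb7. Of the ATPases it had 236 CPM of Psmc1, 268 of Psmc2, 355 of Psmc3, 234 of Psmc4, 139 of Psmc5 and 300 of Psmc6. Of the other cap subunits it had 266 CPM of Psmd1, 590 of Psmd2, 256 of Psmd3, 469 of Psmd4, 246 of Psmd6, 367 of Psmd7, 751 of Psmd8, 304 of Psmd11, 180 of Psmd12, 120 of Psmd13 and 92.6 of Psmd14. The activator Psme3 had 71.1 CPM there.

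The other 8 lay in several libraries. Vehicle sedentary library 5 was low in Psma3 (35.4 CPM) and Psma6 (102 CPM), library 1 of that group was high in Psmd4 (123 CPM) and library 2 in Psmd9 (23.2 CPM). Knockout sedentary library 5 was high in Psmb2 (60.9 CPM) and library 3 in Psmb9 (5.79 CPM). Vehicle trained library 4 was high in Psmd5 (27.2 CPM) and library 1 in Psme2 (7.85 CPM).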

How the results depend on the processing

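For the knockout effect in sedentary muscle the number of the 49 genes called was 6 when only the sedentary groups were fitted, and from 0 to 5 over leaving out each sample. In trained muscle it was 1 with all 20 libraries as separate samples (Psmd8) and from 0 to 12 over leaving out each sample, with 1 called without vehicle trained library 1 (Psme1, 0.74). Those high counts of 5 and 12 came without vehicle trained library 2. All other alternatives kept 0 in every comparison, among them no filter on low counts, other size factors, DESeq2 and both limma scales. The titles share replicate numbers, and of 30 same-numbered pairs 11 correlated above 0.1. Their median correlation was 0.0205, against -0.00697 for other-numbered pairs. This showed no clear pairing but cannot exclude one, and the samples were treated as unpaired. The fit with a replicate block called 0 genes in all 5 comparisons. Of 2080 recomputed log2 changes of named genes, 2045 kept direction and side of the threshold or moved by no more than 1 SE. Another 21 passed the threshold, and 14 turned direction, 11 of them without vehicle trained library 2. Changes of sign within 1 SE are not among the 14. Over leaving out each sample, the knockout change in trained muscle ran from -0.75 to 0.21 for Psma7, -0.46 to 0.46 for Psmb3, -0.15 to 0.39 for Psmc1, -0.48 to 0.44 for Psmc4, -0.61 to 0.20 for Psmd11, -0.67 to 0.30 for Psmd4 and -0.18 to 0.06 for Psme3. For Psmb8 it ran from -0.32 (without knockout trained library 2) to 0.38. The training change in vehicle muscle ran from -0.03 to 0.39 for Psmb5, -0.05 to 0.29 for Psmb7, -0.06 to 0.91 for Psmd4, -0.02 to 0.20 for Psme3, and -0.05 (without vehicle trained library 1) to 0.27 for Psme2. In knockout muscle it ran from -0.15 (without knockout trained library 2) to 0.55 for Psmb8. Per kilobase of the longest transcript the inducible beta median was 4.02 CPM and that of the constitutive beta genes 66.9, so levels per length depend on the length used. With n = 3 in knockout trained muscle, small changes there were the least precise. The omission of library 2 from the count of separated ranges, and the medians without TMM, were chosen after seeing the data. Library 2 was itself singled out from these data, and the calls made without it depend on that choice.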
